A study of Homo sapiens with 20 samples.

Results

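The genes described here are 32 genes of the unfolded protein response and the amino acid response, taken from a fixed list of names. For each, the transcript cluster with a single gene symbol was used, and where a gene had several, the one with the highest mean log2(intensity + 1). All 32 were measured, among 18417 genes in all, and 2 of them (ATF4 and PSPH) had several clusters. By role they fell into 8 stress sensors and transcription factors, 6 feedback and effector genes, 6 genes of amino acid supply, 9 chaperones and folding enzymes of the endoplasmic reticulum, and 3 genes of degradation from the endoplasmic reticulum.

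The genes were followed on 20 Affymetrix human gene arrays of LNCaP, an established androgen-responsive human prostate cancer line, in a study of how the cell cycle shapes the transcripts that dihydrotestosterone (DHT, a potent androgen) induces. The control cells spent 72 h in the medium named CDT in the labels, with ethanol over the final 3 h (3 arrays, called CDT), and the group called CDT+DHT was treated alike but with 10 nM DHT in place of ethanol (3 arrays). For the 5 arrests, cultures were kept in hormone-proficient medium instead, and each got 10 nM DHT over its final 3 h. Arrest in early G1 used 0.5 µM of the CDK4 and CDK6 inhibitor PD-0332991 over 24 h (3 arrays). Arrest in late G1 used 5 µg/mL of roscovitine, which blocks several cyclin-dependent kinases, over 24 h (3 arrays). For early S, 2 µg/mL of aphidicolin, which blocks DNA polymerase, was given over 24 h (2 arrays), and for late S, 1 mM of hydroxyurea, which blocks ribonucleotide reductase, over 24 h (3 arrays). For G2/M, aphidicolin was given at 2 µg/mL over 15 h and washed out, and 50 ng/mL of nocodazole, which blocks microtubule assembly, followed over 9 h (3 arrays). Arrests lacking DHT are not analysed here. An arrest thus differed from CDT in DHT, drug and medium at once, and from CDT+DHT in drug and medium at once.

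The endoplasmic reticulum folds secreted and membrane proteins, and when unfolded protein accumulates there, the sensors IRE1, PERK and ATF6 signal to the nucleus. IRE1 splices the XBP1 mRNA into an active transcription factor, ATF6 is cut free from the membrane, and PERK phosphorylates eIF2α, which lowers general translation while the mRNA of ATF4 is translated more. Lack of amino acids reaches the same ATF4 through the kinase GCN2, and ATF4 then raises genes of amino acid synthesis, transport and stress feedback. Much of this signalling is translational or by splicing, which total signal of a gene on an array does not show.

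The arrays carried a few features of their own that touch these genes. Medians of the deposited intensities ran from 5.44 to 9.08 per array. Whether replicates came from separate cultures is not stated in the labels, so p-values here measure the spread between arrays and nothing more, and the small number of arrays limits the precision. RNA came from whole cultures, in which fewer cells of a kind and less RNA per cell cannot be told apart. Of 8 luminal and LNCaP markers, 5 were measured, with an array mean of 5.96 to 8.08 log2, against a median gene at 3.17, while 7 stromal, 6 leukocyte and 3 basal markers had array means of 2.15 to 3.67, 1.81 to 3.64 and 2.09 to 4.27. KLK2, an androgen-induced kallikrein, averaged 5.75 ± 0.09 (SD, n = 3) in CDT and was higher in every array with DHT.

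In 4 groups 1 array is described here as standing apart: replicate 1 of late S, replicate 3 of CDT+DHT, replicate 1 of CDT and replicate 2 of early G1. They had the 4 highest scores (0.51 to 0.87) on the main axis (first principal component) of array residuals about their group means, which held 43.8% of the residual variance over 9208 brighter genes. At the opposite end, late S replicate 2 scored -0.82 and CDT replicate 2 scored -0.51. In late S, replicate 2 thus lay about as far out as replicate 1. Arrays at that end were kept in the fits without the 4 arrays, which drop arrays from the high end alone. Many of the stress genes were low in these arrays. Late S replicate 1 was the lowest array of its group in 27 of 32 members (84.4%), against 55.9% of all genes. The same count was 23 (71.9%, against 57.8%) for CDT+DHT replicate 3, 19 (59.4%, against 51.2%) for early G1 replicate 2 and 16 (50%, against 37.2%) for CDT replicate 1. In 11 of 32 members (34.4%) all 4 arrays were the lowest of their groups, against 14.2% of all genes. These 11 were ATF6, DNAJC3, CEBPG, SEL1L, EDEM1, VLDLR, HSPA5, PSAT1, ASNS, PDIA6 and PSPH. The axis was built from the brighter genes and signed so that high scores go with low values. Low values in the 4 arrays are thus partly set by how the arrays were picked. All genes include the dimmer ones outside the axis, and genes of like brightness were not compared. Whether the larger shares are particular to the members was therefore not tested. ATF5, TRIB3, SLC7A5 and HERPUD1 were the members whose mean gap over the 4 arrays lay above 0. What part these arrays have in the group differences was not tested, and for several differences that rest on them the value without them is given too.

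**Figure D1:**
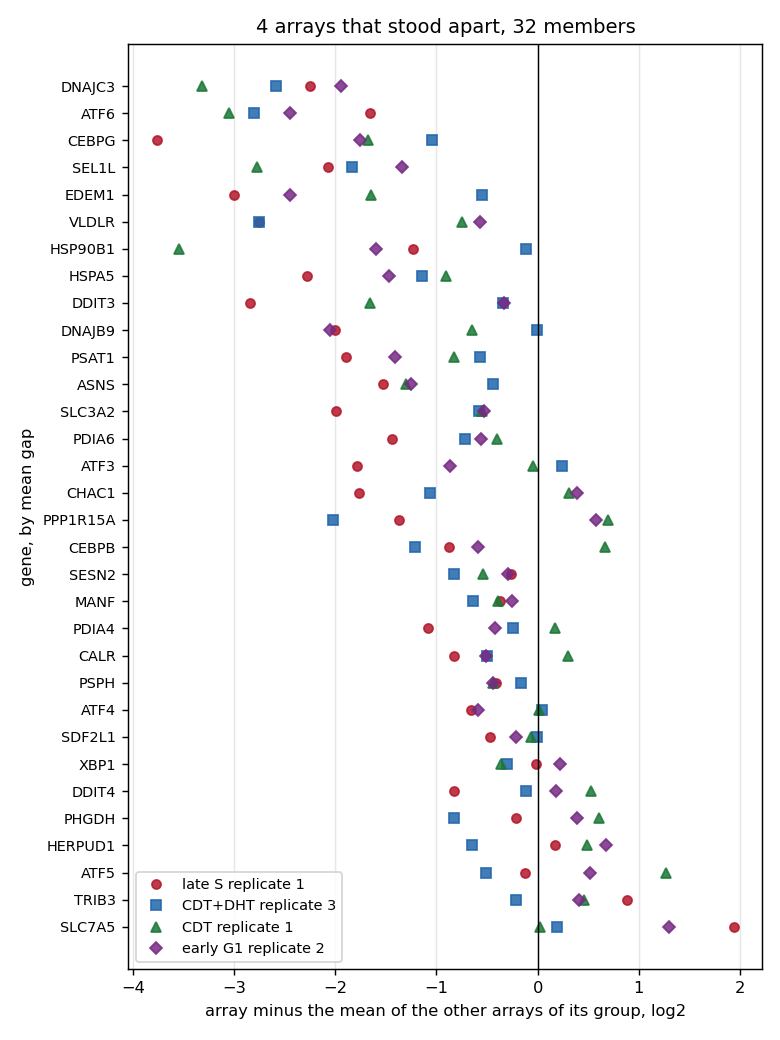
For each of the 32 genes (rows, ordered by mean gap), each point is the log2 value of 1 of 4 arrays minus the mean of the other arrays of its group. DNAJC3, with gaps of -1.95 to -3.32, stands at the top, and SLC7A5, at the bottom, has no gap below 0.

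Across 16 comparisons between groups and an F test among the 5 arrests, ATF5 was the single member called, that is, with an adjusted p under 0.05 (limma, Benjamini-Hochberg over all 18417 genes), and it fell in late G1. The share of all genes called was small throughout. It was 0% in CDT+DHT against CDT. Against CDT, G2/M had 0.109%, late S 0.0977%, early S 0.0326%, late G1 0.103% and early G1 0.00543%. Against CDT+DHT it was 0.44%, 0.0706%, 0.00543%, 0.516% and 0% in the same order. Against the mean of the other arrests it was 0.0271%, 0.0271%, 0%, 0.706% and 0%, and in the F test it was 0.255%. The comparisons share arrays: every arrest was set against the same CDT and CDT+DHT arrays, and each enters the mean that the others are set against.

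ATF5 is a leucine zipper transcription factor close to ATF4, itself made under eIF2α phosphorylation, and active in the mitochondrial stress response. Its log2 values were 6.96, 5.96 and 5.43 in CDT, 6.97, 6.41 and 6.18 in CDT+DHT, and 4.96, 6.08 and 6.17 in early G1. In late G1 they were 3.14, 3.45 and 3.42. Early S held 5.97 and 6.22, late S 6.34, 6.50 and 6.44, and G2/M 6.39, 6.49 and 6.43. The 3 late G1 arrays lay below every other array, with a gap of more than 1 log2 unit to the lowest of the rest, early G1 replicate 1. On the deposited scale the late G1 arrays read 7.8 to 9.9, which is near the medians of whole arrays, and the other 17 read 30.0 to 124.5. The file gives no detection call, so whether late G1 ATF5 stood above background is not known here.

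**Figure D2:**
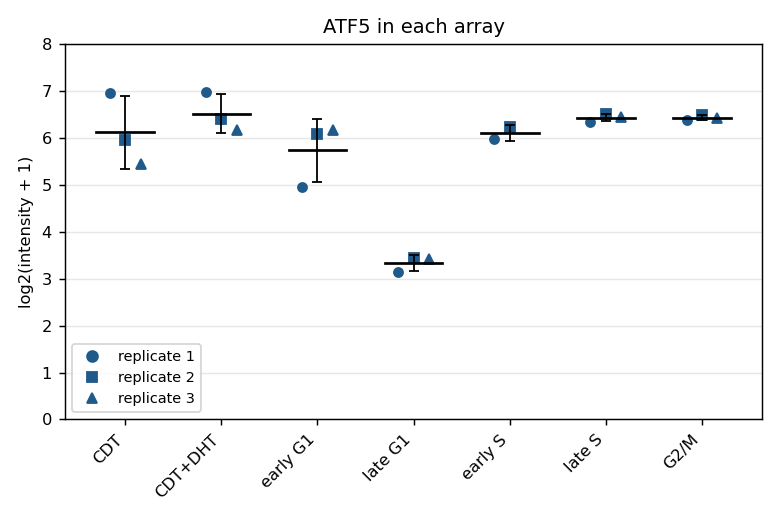
Each point is the log2(intensity + 1) of ATF5 on 1 array, by group, with the group mean (bar) and SD (error bar). The 3 late G1 arrays sit between 3.14 and 3.45, and all others at 4.96 or above.

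Late G1 ATF5 averaged 3.34 ± 0.17 (SD, n = 3), against 6.12 ± 0.78 in CDT and 6.52 ± 0.41 in CDT+DHT. It fell by 2.78 ± 0.48 (log2, SE) against CDT, 6.88-fold, with an adjusted p of 0.0196 in limma. Against CDT+DHT it fell by 3.18 ± 0.48, 9.08-fold (adjusted p = 0.00413, limma), and against the other arrests by 2.84 ± 0.38, 7.15-fold (adjusted p = 0.000885, limma). Its adjusted F test p among the arrests was 0.0138. These differences are on the log2(intensity + 1) scale, which understates the change of a dim gene. In the other groups ATF5 differed from CDT by 0.31 in G2/M, 0.31 in late S, -0.02 in early S, -0.38 in early G1 and 0.40 in CDT+DHT, and none was called. Without the 4 arrays that stood apart these were 0.74, 0.77, 0.40, -0.14 and 0.99 in the same order, again with no call.

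The late G1 fall of ATF5 against CDT was less firm than against the other arrests. Its adjusted p in limma was 0.129 without CDT replicate 1 and 0.101 without CDT replicate 2, and 0.0581, 0.0674 and 0.0787 without late G1 replicates 1, 2 and 3. Without the 4 arrays that stood apart, one of which is that first CDT array, the difference was -2.36 with an adjusted p of 0.0832, and a fit of late G1 and CDT alone gave 0.41. Against CDT+DHT, where no CDT+DHT array was left out alone, the call was lost with only those 2 groups in the fit (0.0964) and kept without the 4 arrays (-3.35, adjusted p = 0.0114). Against the other arrests it was kept under every alternative run. The F test call was lost without any 1 of the 3 late G1 arrays.

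All 32 members were also described by a looser rule, an unadjusted p under 0.05 in limma, which many genes meet and which makes no call. ATF5 is among those counted in late G1 and in the F test. It is also counted, as higher, in late S and in G2/M against the other arrests. There late G1 is part of the mean that each is set against. In CDT+DHT against CDT 2 of 32 members met it, against 6.86% of all genes. Against CDT, G2/M had 3 members that met it (7.05% of all genes), late S 1 (5.94%), early S 2 (5.57%), late G1 1 (9.06%) and early G1 0 (5.11%). Against CDT+DHT, G2/M had 9 members (28.1%, beside 15.1% of all genes), late S 2 (6.25%, beside 10.2%) and early S 1 (3.12%, beside 7.62%). Late G1 had 7 (21.9%, beside 14%) and early G1 5 (15.6%, beside 8.07%). Against the other arrests, G2/M had 2 (6.25%, beside 5% of all genes), late S 5 (15.6%, beside 6.92%) and early S 0 (beside 3.88%). Late G1 had 3 (9.38%, beside 10.5%) and early G1 2 (6.25%, beside 2.47%). The F test had 3, beside 6.89% of all genes. Most counts against CDT were thus near the background.

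As a group the members did not shift far. Their median difference from CDT was -0.06 in G2/M, 0.23 in late S, 0.01 in early S, 0.17 in late G1, 0.20 in early G1 and 0.06 in CDT+DHT, beside medians of all genes of -0.05, -0.10, 0.07, -0.15, -0.04 and -0.10. Against CDT+DHT the members' medians ran from -0.16 in G2/M and early S to 0.15 in late S. Against the other arrests, 23 of 32 members lay above 0 in early G1 (median 0.16, all genes 0.05) and 8 of 32 in G2/M (median -0.23, all genes 0.04). These medians rest on few arrays: in 13 of 16 comparisons the sign changed under at least 1 alternative. Without CDT replicate 1 the median difference from CDT was -0.09 in late G1, -0.23 in early S and -0.05 in late S, and without late S replicate 1 the median of late S against the other arrests went from -0.03 to 0.38. The median of early G1 against the other arrests was -0.07 without early G1 replicate 3, while that of G2/M stayed below 0 in each alternative run. Within groups the members had a median SD of 0.672, from 0.229 in SDF2L1 to 1.57 in EDEM1, against 0.915 for all genes. Genes of like brightness were not compared, so whether this is a trait of the members was not tested.

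**Figure D3:**
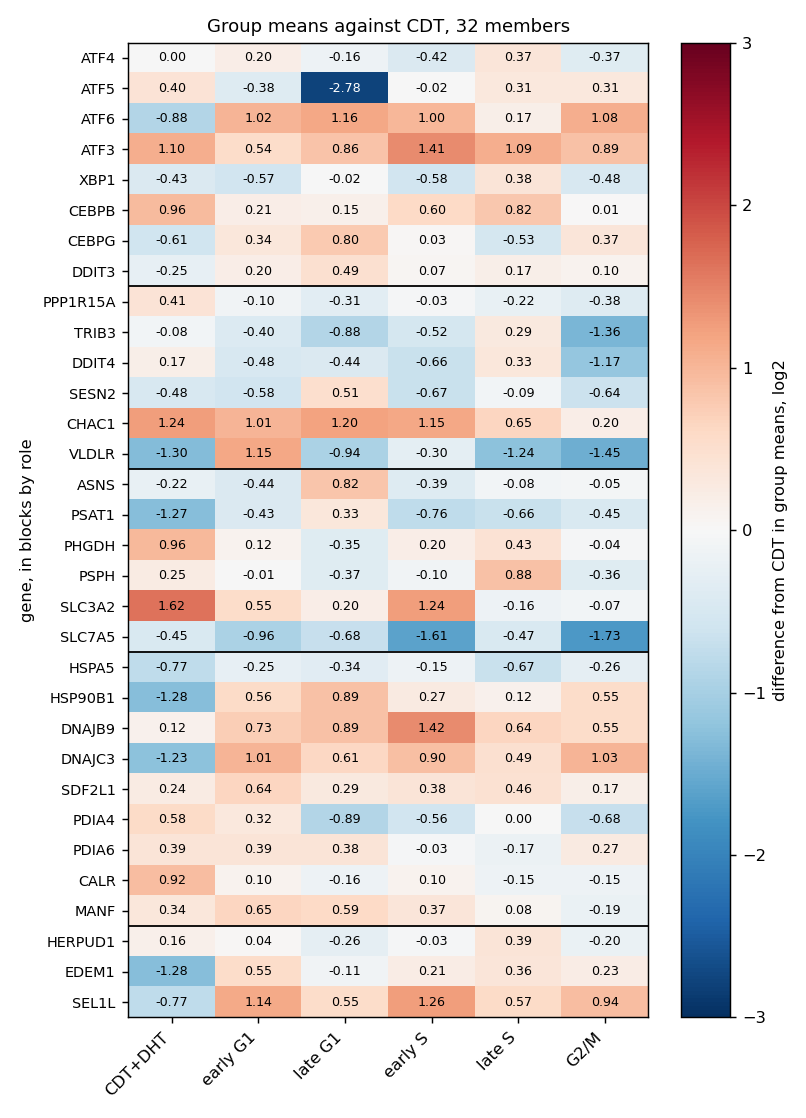
Each cell is the difference in mean log2(intensity + 1) between a group (column) and CDT for 1 of 32 genes (row), with lines between roles, from sensors and transcription factors at the top to degradation genes at the bottom. The darkest cell is ATF5 in late G1, at -2.78, and no other cell was called.

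Among the sensors and transcription factors, ATF4, the centre of the amino acid arm, varied little in the cluster used: its group means ran from 8.56 ± 0.22 (SD, n = 2) in early S to 9.35 ± 0.40 (SD, n = 3) in late S. The late S difference from the other arrests was 0.56 ± 0.32 (SE, adjusted p = 0.736 in limma). A second ATF4 cluster was slightly dimmer (mean 8.65, beside 8.95) and differed more from CDT+DHT. It gave -0.53 in late S, -0.63 in late G1 and -1.06 in G2/M, where the one used gave 0.37, -0.16 and -0.37. Against CDT its late G1 difference was 0.07, where the one used gave -0.16. How ATF4 stood in late G1 thus depends on the cluster. In the cluster used, the fall of ATF5 in late G1 stood beside ATF4 at 8.82 ± 0.10 there, 8.98 ± 0.12 in CDT and 8.98 ± 0.10 in CDT+DHT (SD, n = 3 each).

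XBP1, the target of IRE1 splicing, had the next smallest F test p of this role. Its log2 values were 6.22, 6.56 and 6.60 in CDT, 6.06, 6.21 and 5.83 in CDT+DHT, 5.54, 6.04 and 6.10 in early G1, and 6.13, 6.52 and 6.69 in late G1. Early S held 5.55 and 6.21, late S 6.84, 6.85 and 6.85, and G2/M 6.04, 6.04 and 5.85. The 3 late S arrays were the highest of all 20 and nearly equal, although replicate 1 stood apart in other genes. The difference of late S from the other arrests was 0.80 ± 0.33 (SE), with an adjusted p of 0.717 in limma and 0.866 in the F test, so XBP1 was not called.

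ATF6, the membrane-bound sensor, was dim and tied to the arrays that stood apart, and its values are given although they were chosen after being seen. CDT held 1.89, 5.16 and 4.72, CDT+DHT 3.98, 3.99 and 1.18, and early G1 6.18, 3.31 and 5.34. Late G1 held 5.29, 5.08 and 4.89, early S 4.67 and 5.20, late S 2.99, 4.89 and 4.41, and G2/M 4.75, 5.31 and 4.95. The 4 lowest arrays were the 4 that stood apart, and late G1, early S and G2/M lay wholly above CDT+DHT. The difference from CDT+DHT was 1.89 ± 0.88 in early G1, 2.04 ± 0.88 in late G1 and 1.96 ± 0.88 in G2/M (SE, adjusted p = 0.605, 0.303 and 0.3 in limma). Without the 4 arrays these were 1.77, 1.1 and 1.02 (adjusted p = 0.261, 0.247 and 0.274 in limma).

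The other 4 factors of this role were not called in any comparison. ATF3, an early stress-induced repressor, lay 1.41 above CDT in early S at an unadjusted p under 0.05. CEBPB and CEBPG, partners of ATF4 in dimers, differed from CDT by at most 0.96 and 0.80, and these were 1.59 (in CDT+DHT) and 0.24 (in late G1) without the 4 arrays that stood apart. DDIT3, which encodes the pro-apoptotic factor CHOP, had group means of 3.41 to 4.15, a range no wider than its spread of 1.65 (SD) in late S.

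Sequence just before the start sites of some of these genes carries known binding elements of the pathway. They are shown here beside the late G1 differences from CDT of the genes holding them. RefSeq promoter windows on GRCh38.p14, from 250 bases before to 50 after a start, were searched on both strands for the following letters. These were TGATGNAA, the core that ATF4 binds with a C/EBP partner, and the endoplasmic reticulum stress element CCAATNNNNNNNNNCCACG, bound by ATF6 with NF-Y. The last was TGACGTGG. The stress element ends in CCACG, with which the reverse complement of TGACGTGG begins, so those searches can overlap. Of 32 members, 31 were in the table, with 46 windows. TGATGNAA was present in 3.62% of all 35116 windows and in a window of 6 members, and the stress element in 0.0769% of all windows and in 5 members. TGACGTGG was in 0.729% of all windows and in no member window, and none of the 3 ATF5 windows held any of these letters.

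Below are the matches of the stress element, with the matched letters in capitals, 15 bases on either side, and each run in the direction of its gene.
HSPA5 (chr9:125241376-125241424, minus strand): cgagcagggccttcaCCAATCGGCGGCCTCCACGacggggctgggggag
HSP90B1 (chr12:103930201-103930249, plus strand): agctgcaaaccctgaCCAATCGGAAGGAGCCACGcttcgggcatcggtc
PDIA6 (chr2:10812838-10812886, minus strand): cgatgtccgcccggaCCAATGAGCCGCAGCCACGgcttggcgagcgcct
XBP1 (chr22:28800588-28800636, minus strand): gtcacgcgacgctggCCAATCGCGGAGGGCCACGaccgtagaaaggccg
CALR (chr19:12938369-12938417, plus strand, matched on the opposite strand): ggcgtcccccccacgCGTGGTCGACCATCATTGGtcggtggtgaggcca
HSP90B1 held a further match on the opposite strand. In late G1, where ATF5 fell, these 5 genes differed from CDT by -0.34 (HSPA5), 0.89 (HSP90B1), 0.38 (PDIA6), -0.02 (XBP1) and -0.16 (CALR), with neither a shared sign nor a call. Without CDT replicate 1 the values were -0.64, -0.29, 0.25, -0.14 and -0.06 in the same order, so HSP90B1 turned sign. A match describes letters and says nothing of binding.

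The ATF4 core was matched before the start of 5 members, printed in the same way.
ASNS (chr7:97872454-97872491, minus strand): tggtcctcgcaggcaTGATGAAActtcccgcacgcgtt
ATF3 (chr1:212565201-212565238, plus strand): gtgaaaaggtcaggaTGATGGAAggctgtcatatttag
CEBPG (chr19:33374056-33374093, plus strand): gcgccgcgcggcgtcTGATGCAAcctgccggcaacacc
CHAC1 (chr15:40953247-40953284, plus strand, matched on the opposite strand): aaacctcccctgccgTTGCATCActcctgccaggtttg
HERPUD1 (chr16:56931951-56931988, plus strand, matched on the opposite strand): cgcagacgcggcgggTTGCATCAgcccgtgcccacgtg
SLC3A2 held it after its start. In late G1 against CDT the 6 genes differed by 0.82 (ASNS), 0.86 (ATF3), 0.80 (CEBPG), 1.20 (CHAC1), -0.26 (HERPUD1) and 0.20 (SLC3A2), and none was called. Without CDT replicate 1 these were 0.39, 0.84, 0.24, 1.31, -0.10 and 0.01 in the same order.

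The means of the feedback and effector genes were low in G2/M, without a call. All 6 had a G2/M mean below CDT+DHT (median difference -0.92, all genes -0.05) and below the other arrests (median -0.83, all genes 0.04), and 5 of 6 lay below CDT (median -0.90). With quantile normalization or with arrays centred, all 6 lay below in both of the first 2 comparisons, and with a pseudocount of 16 it was 5 of 6 against CDT+DHT. Apart from DDIT4 these genes were dim, and single low G2/M arrays weighed on their means. In G2/M TRIB3 read 1.14, 3.34 and 3.37, SESN2 1.11, 2.62 and 3.81, and CHAC1 2.23, 1.95 and 0.003. PPP1R15A read 3.75, 1.62 and 2.34 there, and VLDLR 1.66, 0.13 and 3.30. DDIT4, an inhibitor of mTORC1 under stress, had the smallest F test p of this role at 0.044 (adjusted p = 0.708, limma). Its log2 values were 8.88, 8.49 and 8.23 in CDT, 8.62, 8.86 and 8.62 in CDT+DHT, 7.44, 8.18 and 8.55 in early G1, and 8.03, 8.03 and 8.22 in late G1. Early S held 8.03 and 7.72, late S 8.31, 9.08 and 9.20, and G2/M 7.22, 7.53 and 7.36. G2/M lay wholly below every group except early G1, whose first array overlapped it. The G2/M difference from CDT+DHT was -1.33 ± 0.44 (SE, adjusted p = 0.166 in limma), and it was called in 3 alternatives, with a pseudocount of 16, with trend and robust settings, and with the residual score of each array as a covariate. Over all genes these 3 called 1.76%, 1.89% and 7.72%, beside 0.44% in the main fit. Late S differed from the other arrests by 1.01 ± 0.35 (SE, adjusted p = 0.676 in limma).

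VLDLR, a lipoprotein receptor raised by ATF4, lay around the median gene. It read 2.65, 3.27 and 3.54 in CDT, 2.26, 3.28 and 0.02 in CDT+DHT, 4.82, 3.93 and 4.17 in early G1, and 3.53, 0.80 and 2.30 in late G1. Early S held 2.12 and 3.57, late S 0.08, 4.24 and 1.43, and G2/M 1.66, 0.13 and 3.30. Early G1 was the one group with all its arrays above 3.9, and late S replicate 2 overlapped it. The early G1 difference from the other arrests was 2.14 ± 0.81 (SE, adjusted p = 0.999 in limma), and from CDT+DHT 2.46 ± 1.01 (adjusted p = 0.567). The latter was 1.73 without the 4 arrays that stood apart (adjusted p = 0.686 in limma). With a pseudocount of 16 both shrank, to 0.74 and 0.82.

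Of the remaining effectors, TRIB3, a pseudokinase that damps ATF4, lay 1.36 below CDT in G2/M at an unadjusted p under 0.05, and without its lowest array, G2/M replicate 1, the difference was -0.62. SESN2, a leucine sensor that restrains mTORC1, differed by 1.00 ± 0.48 (SE, adjusted p = 0.473 in limma) between late G1 and the other arrests. PPP1R15A (GADD34, which restores translation) had group means of 2.57 to 3.36. CHAC1, a glutathione-degrading enzyme, had group means of 1.20 to 2.44. Both ranges were smaller than or near their largest SD within a group, 1.20 and 1.21.

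**Figure D4:**
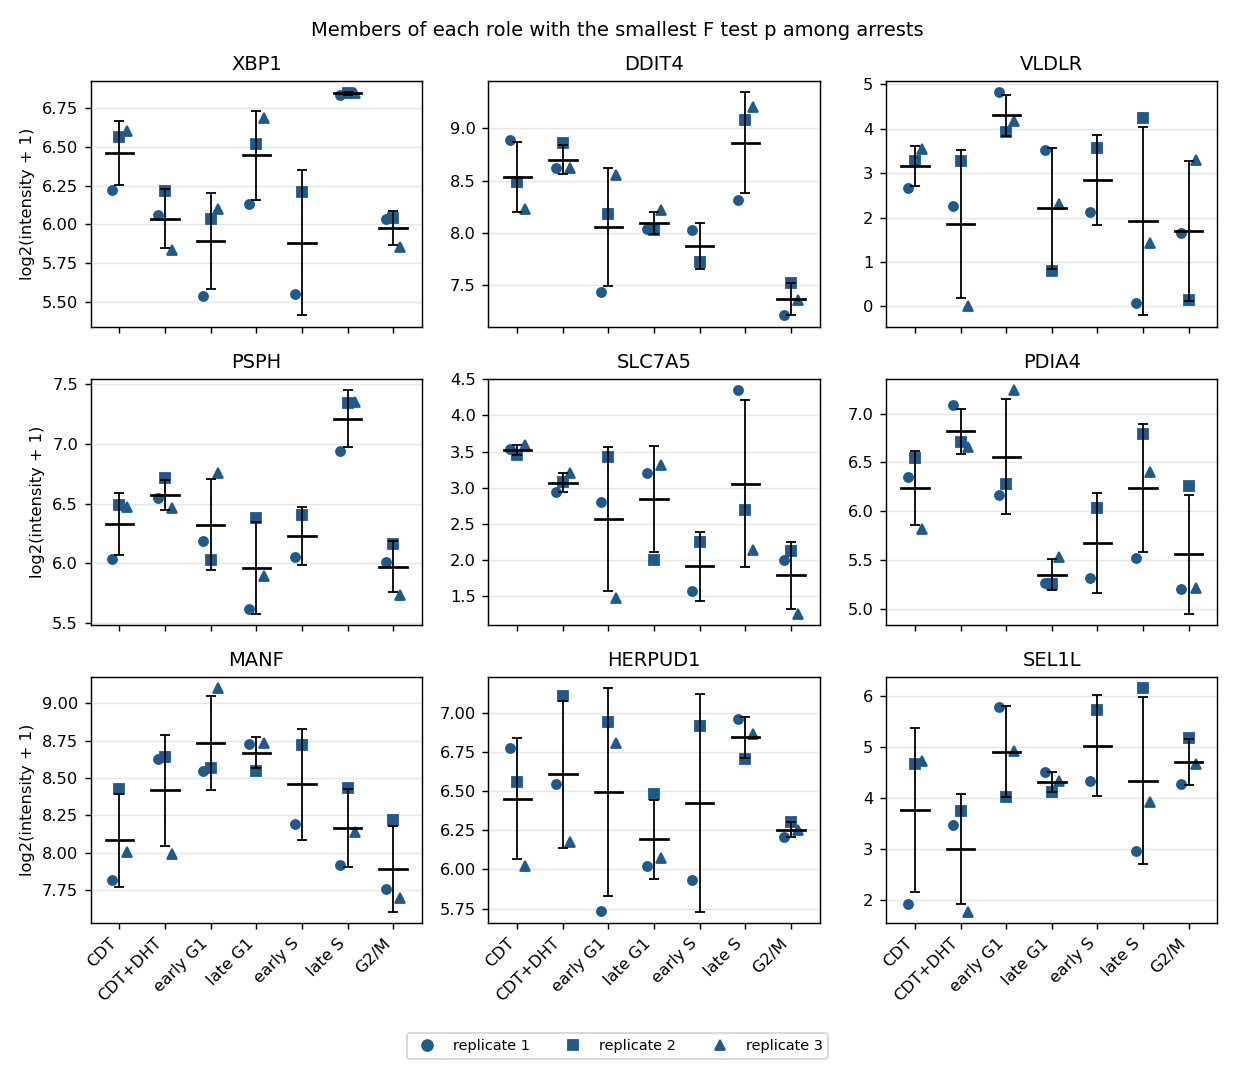
Log2(intensity + 1) of 9 genes by group, 1 point per array, with the group mean (bar) and SD (error bar); each panel has its own axis. In XBP1 and PSPH the 3 late S arrays lie above every other array, and in DDIT4 the G2/M arrays, at 7.22 to 7.53, lie lowest with 1 early G1 array.

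In the amino acid supply group PSPH, the last enzyme of serine synthesis, was highest in late S. Its log2 values were 6.03, 6.48 and 6.47 in CDT, 6.55, 6.71 and 6.46 in CDT+DHT, 6.19, 6.02 and 6.75 in early G1, and 5.62, 6.38 and 5.89 in late G1. Early S held 6.06 and 6.40, late S 6.94, 7.35 and 7.35, and G2/M 6.01, 6.16 and 5.74. No array of another group reached the lowest of the 3 late S arrays. The late S difference was 1.09 ± 0.33 (SE) from the other arrests, with an adjusted p of 0.658 in limma, and the F test gave 0.0443 unadjusted and 0.709 adjusted. It was called with a pseudocount of 16 alone (0.119% of all genes called, from 0.0271%), and a second, dimmer PSPH cluster gave 0.77 ± 0.77 for the same difference.

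SLC7A5, the light chain of the large neutral amino acid transporter, was dim, near or below the median gene on most arrays. It read 3.54, 3.45 and 3.59 in CDT, 2.94, 3.08 and 3.20 in CDT+DHT, 2.80, 3.43 and 1.47 in early G1, and 3.21, 2.00 and 3.32 in late G1. Early S held 1.57 and 2.25, late S 4.35, 2.69 and 2.13, and G2/M 1.99, 2.12 and 1.26. The CDT arrays were close together, and the early S and G2/M arrays lay wholly below both CDT and CDT+DHT. The difference from CDT was -1.61 in early S and -1.73 in G2/M, both at an unadjusted p under 0.05 and neither called. With a pseudocount of 16 they were -0.49 and -0.52, since the size of a difference in a dim gene depends on the pseudocount.

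SLC3A2, the heavy chain of the same transporter, lay 1.62 ± 0.69 above CDT in CDT+DHT, where SLC7A5 lay at -0.45 (SE, adjusted p = 0.696 in limma for SLC3A2). PSAT1, an enzyme of the same serine pathway as PSPH, lay at -1.27 ± 0.58 there (adjusted p = 0.704) and 1.60 ± 0.58 higher in late G1 than in CDT+DHT (adjusted p = 0.21). PHGDH, the first enzyme of that pathway, was -1.31 ± 0.48 in late G1 against CDT+DHT (adjusted p = 0.217), so the serine enzymes did not share a direction. ASNS, asparagine synthetase and a classic ATF4 target, differed by 1.06 ± 0.44 between late G1 and the other arrests (adjusted p = 0.388). In G2/M all 6 genes of this group had means below CDT (median difference -0.22, all genes -0.05) and below the other arrests (median -0.30, all genes 0.04), though not one was called, and without the 4 arrays that stood apart 5 of 6 lay below CDT.

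The median difference of the chaperones and folding enzymes from CDT ran from 0.08 in late S to 0.56 in early G1. Single genes of this role differed from CDT by -1.28 (HSP90B1 in CDT+DHT) to 1.42 (DNAJB9 in early S). In early G1, 8 of 9 had a mean above CDT (median difference 0.56, all genes -0.04), 7 of 9 with quantile normalization or without the 4 arrays, and none was called. PDIA4, a disulfide isomerase, had the smallest F test p of this role (0.126, adjusted p = 0.866 in limma). It read 6.35, 6.55 and 5.81 in CDT, 7.08, 6.71 and 6.66 in CDT+DHT, 6.16, 6.28 and 7.24 in early G1, and 5.26, 5.25 and 5.53 in late G1. Early S held 5.31 and 6.03, late S 5.52, 6.79 and 6.40, and G2/M 5.20, 6.26 and 5.21. Late G1 lay wholly below CDT, CDT+DHT and early G1. The late G1 difference from CDT+DHT was -1.47 ± 0.49 (SE, adjusted p = 0.185 in limma), called with a pseudocount of 16 (2.41% of all genes called, from 0.516%).

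MANF, a secreted protein of the endoplasmic reticulum induced by unfolded protein, showed smaller differences. It read 7.82, 8.42 and 8.0 in CDT, 8.63, 8.64 and 7.99 in CDT+DHT, 8.54, 8.57 and 9.10 in early G1, and 8.73, 8.55 and 8.74 in late G1. Early S held 8.19 and 8.72, late S 7.92, 8.43 and 8.14, and G2/M 7.75, 8.22 and 7.70. Both G1 arrests lay wholly above CDT, late S and G2/M. The G2/M difference from the other arrests was -0.62 ± 0.34 (SE, adjusted p = 0.997 in limma), not called.

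HSP90B1, the endoplasmic reticulum member of the HSP90 family, and DNAJC3, a cochaperone that also inhibits PERK, were low in CDT+DHT, and their values too were chosen after being seen. HSP90B1 read 6.75, 7.29 and 6.91 in CDT+DHT, against 5.90, 9.20 and 9.69 in CDT. Among the arrests it read 9.96, 7.76 and 8.76 in early G1, 9.73, 8.90 and 8.83 in late G1, 7.59 and 9.49 in early S, 7.56, 9.53 and 8.06 in late S, and 8.98, 8.49 and 8.97 in G2/M. All 14 arrested arrays were above all 3 CDT+DHT arrays, while CDT replicate 1 was the lowest of all. The difference from CDT+DHT was 1.84 ± 0.83 in early G1, 2.17 ± 0.83 in late G1 and 1.83 ± 0.83 in G2/M (SE, adjusted p = 0.586, 0.238 and 0.303 in limma). Without the 4 arrays these were 2.34, 2.13 and 1.79 (adjusted p = 0.291, 0.125 and 0.183 in limma), so the direction did not rest on those arrays.

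DNAJC3 had the widest mean gap over the 4 arrays that stood apart. It read 1.81, 5.19 and 5.06 in CDT, 3.35, 3.94 and 1.06 in CDT+DHT, 6.07, 3.74 and 5.29 in early G1, and 5.16, 5.12 and 3.61 in late G1. Early S held 4.45 and 5.39, late S 3.01, 5.39 and 5.13, and G2/M 4.85, 5.13 and 5.15. CDT+DHT lay wholly below early S and G2/M and overlapped the rest. The difference from CDT+DHT was 2.25 ± 0.92 in early G1 and 2.26 ± 0.92 in G2/M (SE, adjusted p = 0.567 and 0.253 in limma), and 2.04 and 1.40 without the 4 arrays.

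CALR, the lectin chaperone calreticulin, was the reverse of these: its CDT+DHT arrays averaged 10.18 ± 0.36 (SD, n = 3), and late G1, late S and G2/M lay at -1.08, -1.07 and -1.08 from them, each at an unadjusted p under 0.05 and none called (adjusted p = 0.296, 0.444 and 0.272 in limma). HSPA5 (BiP), the main chaperone of the endoplasmic reticulum and the usual readout of its stress, had group means of 6.44 to 7.21, and no difference from CDT was above 0. Its largest difference from CDT was -0.77 in CDT+DHT, where the SD was 0.67, against 0.53 in CDT. DNAJB9, a cochaperone that restrains IRE1, lay 1.42 above CDT in early S, SDF2L1, a partner of HSPA5, at most 0.64 above it, and PDIA6, another disulfide isomerase, within 0.39 of it.

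In the degradation group HERPUD1, a membrane protein of the degradation complex, was steady. It read 6.77, 6.55 and 6.02 in CDT, 6.54, 7.10 and 6.17 in CDT+DHT, 5.73, 6.94 and 6.80 in early G1, and 6.02, 6.48 and 6.07 in late G1. Early S held 5.93 and 6.91, late S 6.96, 6.70 and 6.86, and G2/M 6.21, 6.30 and 6.25. Late S lay wholly above late G1 and G2/M but overlapped the other groups. Its late S difference from the other arrests was 0.50 ± 0.37 (SE, adjusted p = 0.775 in limma).

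SEL1L, the scaffold of the degradation ligase, followed the arrays that stood apart. It read 1.92, 4.66 and 4.73 in CDT, 3.48, 3.74 and 1.78 in CDT+DHT, 5.78, 4.01 and 4.93 in early G1, and 4.50, 4.11 and 4.34 in late G1. Early S held 4.32 and 5.73, late S 2.96, 6.14 and 3.92, and G2/M 4.28, 5.18 and 4.66. CDT+DHT lay wholly below every arrest but late S. Its difference from CDT+DHT was 1.91 ± 0.83 in early G1 and 2.02 ± 0.93 in early S (SE, adjusted p = 0.568 and 0.636 in limma), and 1.74 and 1.41 without the 4 arrays. EDEM1, a mannosidase-like protein that hands over misfolded glycoproteins, had group means of 0.37 to 2.20, at the bottom of the array's range, and an SD of up to 2.60 in early S.

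For ATF6, DNAJC3 and SEL1L, as for HSP90B1 and PSAT1 in late G1, the call depended on the residual score of each array, a covariate that leaves the differences as they are and removes variance shared along the main residual axis. With it, ATF6, DNAJC3 and SEL1L passed in early G1 against CDT+DHT (adjusted p = 0.0498, 0.0356 and 0.0251 in limma). In late G1, ATF6, PSAT1 and HSP90B1 passed at 0.0214, 0.0199 and 0.0325, with DNAJC3 as well. In G2/M, ATF6, DNAJC3 and DDIT4 passed at 0.0174, 0.0123 and 0.0429, with SEL1L as well, and in early S SEL1L passed at 0.028. None of these passed when the 4 arrays were left out instead. The score raised calls over all genes as well, from 0% to 2.01% in early G1, from 0.516% to 5.33% in late G1, from 0.00543% to 2.4% in early S and from 0.44% to 7.72% in G2/M, and it was built from residuals of these same arrays.

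The wider pathway gave 1 further call. Of 43 other genes of the ATF4 and amino acid arm, 41 were measured, and of 45 others of the endoplasmic reticulum arm, 42. GDF15, a secreted stress cytokine that ATF4 and p53 can both raise, was the only one called in any of the 16 comparisons. It read 8.80, 7.48 and 7.53 in CDT, 7.65, 7.90 and 7.67 in CDT+DHT, 7.95, 8.41 and 8.05 in early G1, and 8.64, 9.16 and 8.53 in late G1. Early S held 8.40 and 8.55, late S 10.44, 10.42 and 10.54, and G2/M 9.47, 8.99 and 9.32. The 3 late S arrays lay above every other array by nearly 1 log2 unit. Late S rose by 2.53 ± 0.44 (SE) against CDT and by 2.73 ± 0.44 against CDT+DHT (adjusted p = 0.0336 and 0.0293 in limma).

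Several single arrays decide the GDF15 calls. Against CDT its adjusted p in limma was 0.157 and 0.197 without CDT replicates 2 and 3, and 0.109 and 0.2 without late S replicates 1 and 3. Against CDT+DHT, where no CDT+DHT array was left out alone, it was 0.0774 and 0.182 without late S replicates 1 and 3. Without the 4 arrays that stood apart it was 0.0701 and 0.131, and in fits of the compared pair alone 0.879 and 0.429. The difference itself lay between 2.30 and 2.98 in these settings.

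In the rest of the wider lists the looser rule gave its highest counts against CDT+DHT. Of the 41 genes of the ATF4 arm, 16 (39%) had an unadjusted p under 0.05 in G2/M, 10 higher and 6 lower, beside 15.1% of all genes, and 14 (34.1%) in late G1, 10 higher and 4 lower, beside 14%. Against the other arrests it was 0 in G2/M (beside 5% of all genes) and 3 in late G1 (7.32%, beside 10.5%). Of the 42 genes of the endoplasmic reticulum arm it was at most 9 (21.4%, beside 10.2% of all genes), in late S against CDT+DHT, 5 higher and 4 lower.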

How the data were processed

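Extraction was with Trizol, amplification with NuGEN's Ovation Pico WTA V2 and labelling with biotin, per the labels' protocols. Per the submitters' processing notes the authors used Affymetrix Expression Console 1.1, and what they deposited is 1 intensity per probe set and array. How probes were summarised and arrays normalized is not given in the sources used here. Intensities ran on a linear scale, so log2(intensity + 1) was taken. Of 33297 features, 19460 had 1 gene symbol, and the brightest cluster per gene gave 18417 genes. All 20 arrays entered 1 two-sided fit in limma 3.58.1 (lmFit and eBayes, R 4.3.3), with p-values adjusted by Benjamini-Hochberg across genes and called under 0.05. The fit was tested on simulated data. Values in every array are given for members that passed and for the 2 of each role with the smallest F test p, and up to 4 passing genes of each wider list were named. The members and lists were chosen with earlier results of these data known. No pair of arrays was identical.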

Additional observations from a re-analysis of the deposited data

How the results depend on the processing

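Alternatives were run for the members' counts and medians and for differences that passed, met the unadjusted rule or belonged to the 2 smallest F tests of a role, and each of those differences kept its direction. The number of members called stayed within 1.5 times of the reported one except as follows. With a pseudocount of 16 it was 3 in late G1 against CDT+DHT (ATF5, PHGDH and PDIA4, from 1), 1 in G2/M against CDT+DHT (DDIT4, from 0), 1 in late S against the other arrests (PSPH, from 0) and 2 in the F test (ATF5 and PSPH, from 1). With trend and robust settings it was 1 in G2/M against CDT+DHT (DDIT4). Calls over all genes rose too, from 0.516% to 2.41% in late G1 against CDT+DHT with the pseudocount of 16. In G2/M against CDT+DHT they rose from 0.44% to 1.76% with it and to 1.89% with trend and robust settings. In late S against the other arrests the pseudocount took them from 0.0271% to 0.119%. Against CDT+DHT with the residual score, early G1 had 3, late G1 had 5, early S had 1 and G2/M had 4, where 370, 982, 442 and 1422 of all 18417 genes were called. In fits of the compared groups alone it was 0 in late G1 against CDT, in late G1 against CDT+DHT and in the F test, where fewer arrays estimate the spread. Without the 4 arrays that stood apart it was 0 in late G1 against CDT. Leaving out 1 array at a time it ran from 0 to 1 in late G1 against CDT and from 0 to 1 in the F test. In comparisons with CDT+DHT no CDT+DHT array was left out alone. Counts, medians and directions there were thus not checked against single CDT+DHT arrays. Replicate 3, which stood apart, was left out only together with the other arrays that stood apart. The cause of the other changes was not tested. Same-numbered arrays did not deviate together more than others. Their correlations ran from -0.68 to 0.66, with 17 of 57 over 0.1, beside 44 of 114 for arrays of different number, and 7 of 20 arrays were closest to their own number. No pairing by number was thus seen, and whether same-numbered arrays shared a culture or batch is not known. With the replicate block 1 member was still called in late G1 against CDT (ATF5, adjusted p = 0.0486 in limma), and the GDF15 calls were lost (0.0723 against CDT and 0.0804 against CDT+DHT). Quantile normalization or centring moved the median of all genes by over 0.1 in some comparisons, for example in late G1 against CDT from -0.15 to 0.00 and -0.01, and in CDT+DHT against CDT from -0.10 to 0.00 and 0.05. Dim genes such as EDEM1, CHAC1 and VLDLR, with no detection call, limit what these arrays can show.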
